A study of Mus musculus with 2 samples.

Results

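The NuRD complex joins histone deacetylation to nucleosome remodelling, and the genes described here encode its subunits other than the remodelling ATPase. They were taken from the deposited expression table by symbol and number 10 of its 17359 genes: the deacetylases Hdac1 (Entrez 433759) and Hdac2 (15182), the scaffolds Mta1 (116870), Mta2 (23942) and Mta3 (116871), the histone-binding proteins Rbbp4 (19646) and Rbbp7 (245688), the linker Mbd3 (17192), and Gatad2a (234366) and Gatad2b (229542). RNA came from mouse neural stem cells, which renew themselves and produce neurons and glia, in a study of the nuclear pore protein Seh1 in neurogenesis. In the siChd4 group (1 library, genotype Chd4 knockdown) the cells were transfected with a small interfering RNA against Chd4, the main NuRD ATPase of these cells, and in the siSCR group (1 library, genotype control) with a scrambled one. The labels give neither the strain, the age nor the source of the cells, nor any Seh1 allele, nor the sequence, dose or time of the siRNA.

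In NuRD, a pair of MTA proteins forms the scaffold that holds and activates HDAC1 or HDAC2, which remove acetyl groups from histone tails, and binds RBBP4 or RBBP7, WD40-repeat proteins that grip histones. An MBD protein, MBD2 or MBD3 but never both in 1 complex, ties this deacetylase core to GATAD2A or GATAD2B, and the GATAD2 protein in turn binds the ATPase. Since paralogs replace each other at each place, the mRNA level of a family and the share of each paralog within it are separate quantities. HDAC1, HDAC2, RBBP4 and RBBP7 also work outside NuRD, in the Sin3 and CoREST complexes and, for the RBBP proteins, in Polycomb repressive complex 2 and in chromatin assembly factor 1.

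Levels are given in TPM, which is corrected for transcript length and scaled to the same total in each library, so that genes may be compared with each other. The siChd4 library held 20072009 estimated counts and the siSCR library 19816811. With 1 library per group no test between conditions could be made and no difference has a check against the spread between cultures. Each fold of siChd4 over siSCR is followed by its exact Clopper-Pearson 95% counting interval, which covers counting error only. Sox2, Nes and Fabp7, markers of neural stem cells, were abundant in siChd4 and siSCR, at 336 and 314 TPM for Sox2, 396 and 328 TPM for Nes, and 7004 and 6105 TPM for Fabp7. Chd4 itself was at 203 TPM with siChd4, against 249.5 TPM with siSCR, lower as its label says but by a small amount (0.815-fold, 0.795 to 0.836). In the same libraries mitotic genes were lower in siChd4 (12 of 12 G2 and M phase genes had a log2 ratio below 0, summed 1541 against 2150 TPM), beside 55.3% of all genes, and 12 of 12 also lay below 0 in CPM, the estimated counts scaled to the library total with no length correction. S phase genes summed to 3042 TPM with siChd4 and 3424 TPM with siSCR, and 12 of 12 lay below 0 in TPM but 7 of 12 in CPM, beside 48.3% of all genes. Neuron markers were higher (11 of 11 tested, summed 1074 against 783 TPM), as were oligodendrocyte lineage markers (7 of 8 tested, summed 1146 against 1027 TPM). Among all genes with a mean TPM of 1 or more, 5736 of 12882 had a log2 ratio above 0. Most of the oligodendrocyte sum was Olig2, the 1 tested marker below 0 (880 against 890 TPM). Of either list, 0 markers were at 0 TPM in both libraries. Lower in level but also higher in siChd4 were the summed markers of fibroblasts and smooth muscle (29.0 against 15.3 TPM), of striated muscle (15.3 against 4.31 TPM) and of endothelium (5.28 against 3.65 TPM). In that order, 4, 3 and 2 genes of these lists had a mean TPM of 1 or more. Pdgfra, counted in both the fibroblast and the oligodendrocyte lineage list, gave 10.3 TPM with siChd4 and 4.85 TPM with siSCR. Microglia markers summed to 39.7 against 9.53 TPM, of which P2ry12 alone gave 36.1 against 6.84 TPM. Astrocyte markers summed to 851 against 795 TPM but to 430 against 486 TPM without Aldh1l1, with 4 of 8 above 0 and 4 below. The part of these lists in the results below was not tested, and in bulk RNA, fewer cells of a type and less RNA per cell cannot be told apart.

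Paralogs of a family encode similar proteins from mRNAs that differ at many bases, and the runs below are shown because the reading of paralog shares rests on those differences. Each run holds 30 coding bases that encode the same 10 amino acids in both paralogs, and is the aligned stretch of that kind with the most differing bases. They are written 5′ to 3′ from GENCODE M21 transcripts (mouse GRCm38, a build other than the table's mm39), with positions counted from the A of the start codon, and capitals mark the bases that differ from the paralog.
Hdac1, coding bases 1093 to 1122, chromosome 4: cgtCtCtttgaGaaCTtGAgGatgCtGccC
Hdac2, coding bases 1096 to 1125, chromosome 10: cgtTtAtttgaAaaTCtACgTatgTtAccA
Rbbp4, coding bases 499 to 528, chromosome 4: tgCaaCccCgatTtGCgTCtCCgTggAcaT
Rbbp7, coding bases 496 to 525, chromosome X: tgTaaTccTgatCtTAgATtAAgAggTcaC
Gatad2b, coding bases 1729 to 1758, chromosome 3: ctTTtAgacatgatCcctccCAgGtcTatA
Gatad2a, coding bases 1840 to 1869, chromosome 8: ctCCtGgacatgatTcctccACgCtcCatC

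The Hdac1 and Hdac2 runs differ at 11 of 30 bases, the Rbbp4 and Rbbp7 runs at 13, and the Gatad2b and Gatad2a runs at 9. Over the whole aligned coding sequence, Hdac1 and Hdac2 are identical at 86.3% of residues but 75.1% of bases, Rbbp4 and Rbbp7 at 89.6% and 78.1%, and Gatad2b and Gatad2a at 47.6% and 53.3%. The MTA pairs lie between, at 65.4% of residues for Mta1 and Mta2, 74.2% for Mta1 and Mta3 and 68.01% for Mta2 and Mta3. The longest run of identical aligned coding bases in any of these 6 pairs was 20, and of the 52015 distinct words of 50 bases in all 63 annotated transcripts of the members, 0 occurred in more than 1 member.

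Hdac1 shares much of its sequence with a pseudogene instead of its paralog. Of the 1989 words of 50 bases in its transcript with the longest coding sequence, 56.4% also occur in Gm10093, a processed pseudogene, and 58.7% in some other annotated gene. Gm10093 is not among the genes analysed here, and how the authors divided reads between Hdac1 and its copies was not tested, so the level of Hdac1 is uncertain. Rbbp7 shares 9.38% of its words with the processed pseudogene Gm6382. Rbbp4 overlaps genes on the other strand over 33.0% of its words. The larger part, 17.2%, is shared with Gm26722, a long noncoding RNA gene that is not among the genes analysed here, so its level is not known. Another 15.8% is shared with Sync, a muscle filament gene that was at 2.05 TPM with siChd4 and 2.14 TPM with siSCR. The strand of the reads is not given in the sources used here, so reads from such overlaps cannot be told apart.

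The summed level of the 10 subunits was nearly equal in the libraries. Together they reached 1642 TPM with siChd4, against 1623 TPM with siSCR (1.01-fold, 0.997 to 1.03). Their median log2 ratio on TPM plus 1 was -0.01, beside -0.04 over the 12882 genes whose mean TPM was 1 or more, a filter that all 10 passed. At least 1.5-fold differences were found for 0 of 10 members in either direction, beside 6.75% of all genes higher and 4.47% lower. At a limit of 1.2-fold, 1 member was higher, Hdac1, beside 18.1% of all genes, and 1 was lower, Gatad2b, beside 22.3%. Among the 6187 genes between Mta3 and Rbbp7 in mean TPM, the lowest and the highest member, these shares were 12.1% and 20.7%. The counting interval of the fold lay above 1 for Hdac1, Mbd3 and Mta2 (3 of 10, beside 25.1% of all genes) and below 1 for Rbbp4, Rbbp7 and Gatad2b (3 of 10, beside 34.1%). At this depth an interval that leaves out 1 is thus common across the genome, and the members' share of such intervals is near the background.

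**Figure D1:**
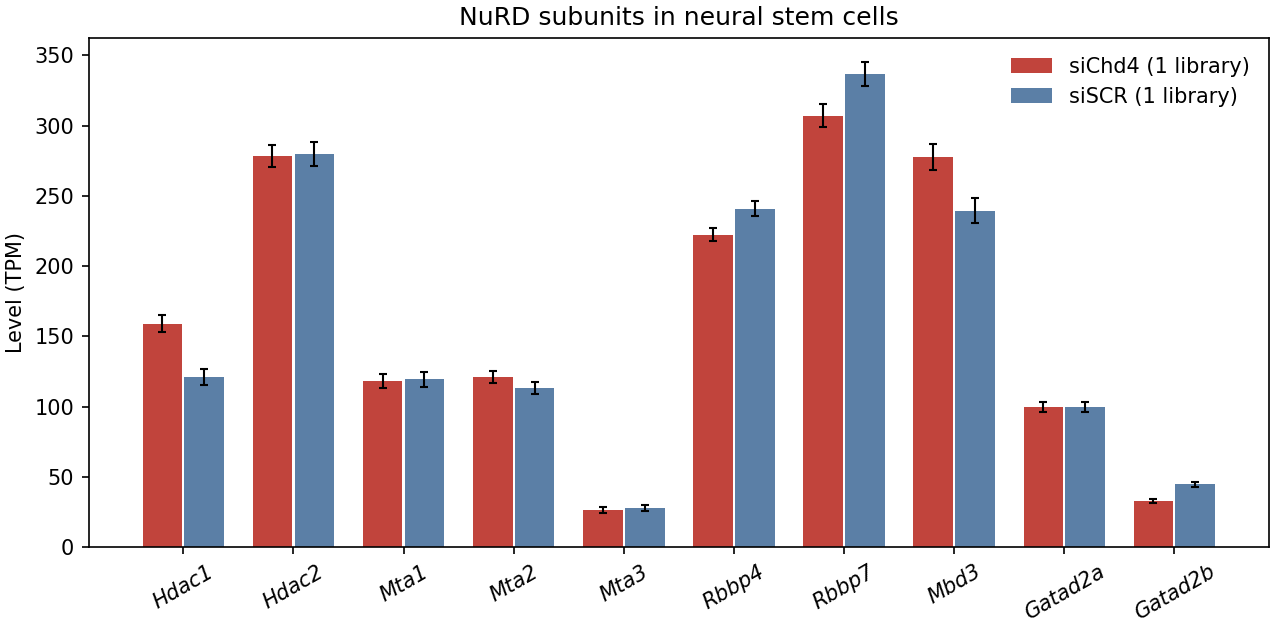
Level in TPM (vertical axis, from 0) of each of the 10 NuRD subunits in the siChd4 library (red) and the siSCR library (blue), with error bars for the 95% Poisson interval of the counts. Hdac1 and Mbd3 stand higher in siChd4 by 37.96 and 37.99 TPM, and Rbbp7 lower, at 307 against 337 TPM.

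The balance of the deacetylase pair differed between the libraries. Hdac1 was at 159 TPM in the siChd4 library, against 121 TPM in the siSCR library (1.31-fold, 1.24 to 1.40), from 2546 and 1838 estimated counts. Hdac2, the more abundant paralog, was at 278 TPM with siChd4 and 279.8 TPM with siSCR (0.995-fold, 0.954 to 1.04). Thus Hdac1 was higher in siChd4 while Hdac2 was level within counting error. The share of Hdac1 in the pair's TPM was 36.4% in siChd4 (35.2 to 37.5%), against 30.2% in siSCR (29.1 to 31.4%), and the Hdac1 to Hdac2 ratio was 0.572 against 0.433, a 1.32-fold difference (1.23 to 1.42). As a family the deacetylases summed to 437 TPM with siChd4 and 401 TPM with siSCR. The log2 ratio of Hdac1, 0.39, was above that of 88.2% of all genes, which places it inside the middle 95% of the transcriptome.

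The MTA scaffolds differed little between the libraries. Mta2 was at 121 TPM with siChd4 and 113 TPM with siSCR (1.07-fold, 1.01 to 1.12). Mta1 was at 118 TPM with siChd4 and 119 TPM with siSCR (0.988-fold, 0.929 to 1.05). Mta3, the scarce paralog, was at 26.5 TPM with siChd4 and 27.6 TPM with siSCR (0.961-fold, 0.861 to 1.08). The summed MTA level was 265 TPM with siChd4 and 260.4 TPM with siSCR. Mta3 made up 9.99% of it in siChd4 (9.27 to 10.8%) and 10.6% in siSCR (9.81 to 11.4%), with overlapping intervals. The share of Mta2 was 45.6% in siChd4 and 43.6% in siSCR, and that of Mta1 was 44.5% in siChd4 and 45.9% in siSCR. The Mta1 to Mta2 ratio was 0.976 in siChd4, against 1.05 in siSCR, a 0.927-fold difference whose interval of 0.854 to 1.005 includes 1 in TPM. On the estimated counts alone it was 0.903-fold (0.832 to 0.980), so whether this ratio differed beyond counting error depends on the transcript lengths used.

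The histone-binding pair was lower by a similar amount in both paralogs. Rbbp7, the most abundant subunit in either library, was at 307 TPM with siChd4 and 337 TPM with siSCR (0.913-fold, 0.880 to 0.947). Rbbp4 was at 222 TPM with siChd4 and 241 TPM with siSCR (0.923-fold, 0.895 to 0.952). In CPM the differences of the pair were smaller, 0.953-fold (0.919 to 0.989) for Rbbp7 and 0.962-fold (0.932 to 0.992) for Rbbp4. Their balance was the steadiest of the families: Rbbp4 made up 42.0% of the pair in siChd4 (41.2 to 42.8%) and 41.7% in siSCR (40.9 to 42.5%), and their ratio differed 1.01-fold (0.964 to 1.06). Rbbp4 gathered more reads than Rbbp7 (8056 against 5673 in siChd4, 8271 against 5875 in siSCR) but its transcript was about 4.35 kb against 2.22 kb in siChd4, so per length it was the lower of the pair. The log2 ratios of -0.11 for Rbbp4 and -0.13 for Rbbp7 were above those of 39.7% and 37.3% of all genes. The median was -0.04 over all genes and -0.05 over those between Mta3 and Rbbp7 in mean TPM. Both ratios were also close to the S phase list's median of -0.12, and the part of that list in the result was not tested. Of the 14 genes of other complexes that hold Rbbp4 or Rbbp7, 11 lay below 0 in TPM, beside 55.3% of all genes. In CPM, 10 did, beside 48.3%. The list's median was -0.20, beside -0.04 over all genes. At least 1.2-fold lower were 6, beside 22.3% of all genes, and 1 was higher, beside 18.1%. Past 1.5-fold were 0 in either direction, beside 6.75% of all genes higher and 4.47% lower. The most abundant of the 14 were the remodelling ATPase gene Smarca5 (157 TPM with siChd4, 211 TPM with siSCR) and the histone acetyltransferase gene Hat1 (152 TPM with siChd4, 191 TPM with siSCR).

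Mbd3, which links the deacetylase core to the GATAD2 protein, was higher in siChd4. It was at 278 TPM with siChd4, against 239.5 TPM with siSCR (1.16-fold, 1.10 to 1.22), from 3529 and 2894 estimated counts. Its log2 ratio of 0.21 was above that of 78.6% of all genes. Mbd2, which takes the same place in a separate form of the complex and binds methylated CpG, was at 60.95 TPM with siChd4 and 62.3 TPM with siSCR (0.979-fold, 0.892 to 1.08). Mbd3 therefore made up 82.0% of the pair's TPM with siChd4 (80.9 to 83.1%), against 79.4% in siSCR (78.1 to 80.6%), and the Mbd3 to Mbd2 ratio was 1.18-fold higher (1.06 to 1.32).

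In the GATAD2 pair, which binds the ATPase, the minor paralog was lower in siChd4 and the major one was level within counting error. Gatad2b was at 32.9 TPM with siChd4, against 44.7 TPM with siSCR (0.736-fold, 0.693 to 0.782). Gatad2a was at 99.7 TPM with siChd4 and 99.9 TPM with siSCR (0.998-fold, 0.948 to 1.05). The share of Gatad2b in the pair was 24.8% in siChd4 (23.8 to 25.9%), against 30.9% in siSCR (29.7 to 32.1%). Its log2 ratio of -0.43 was the lowest of the members, with 9.62% of all genes lower still.

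**Figure D2:**
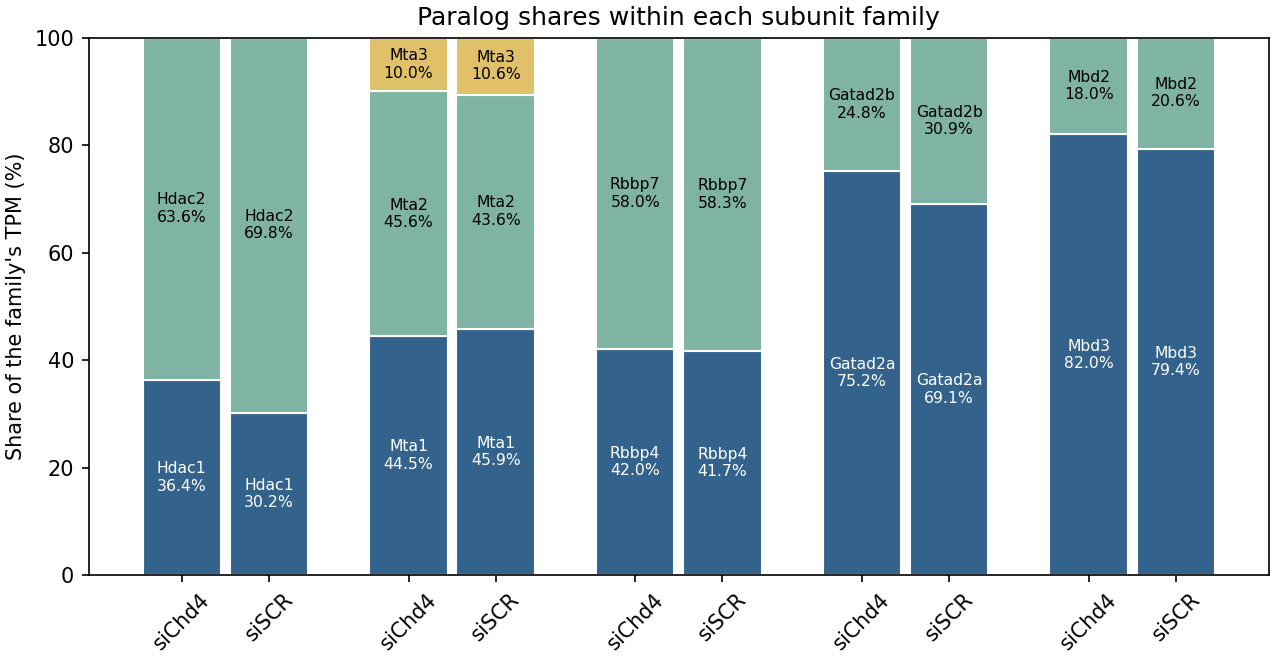
Share of each paralog in the summed TPM of its family (vertical axis, percent) in siChd4 and siSCR, 1 library each; Mbd2 is shown as the alternative to Mbd3. The Hdac1 share is 36.4% against 30.2% and the Gatad2b share 24.8% against 30.9%, while the Rbbp4 share is 42.0% against 41.7%.

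The size of the Gatad2b difference depended on the transcript length behind its TPM. That length, read from the ratio of the scaled estimated counts to FPKM, was 7.15 kb in siChd4 and 6.56 kb in siSCR, a ratio of 1.09 relative to the median gene and higher than for 98.3% of genes. In CPM, Gatad2b was at 97.51 CPM with siChd4 and 117 CPM with siSCR (0.835-fold, 0.786 to 0.887), and 19.3% of all genes were lower. Gatad2b has 5 annotated coding transcripts between 788 and 7438 bases long, and which of them were read was not tested. It was the 1 member of 10 whose length was over 5% longer in siChd4, beside 3.74% of all genes, and 0 members were over 5% shorter, beside 5.11%. Mta1 (2.07 kb in siChd4, 2.13 kb in siSCR) and Mta3 (2.95 kb in siChd4, 2.87 kb in siSCR) had length ratios of 0.971 and 1.03, and CPM folds of 0.999 and 1.03. Hdac1 and Mbd3 had nearly equal lengths in the libraries, and were 1.37-fold (1.29 to 1.45) and 1.204-fold (1.15 to 1.27) higher in CPM.

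**Figure D3:**
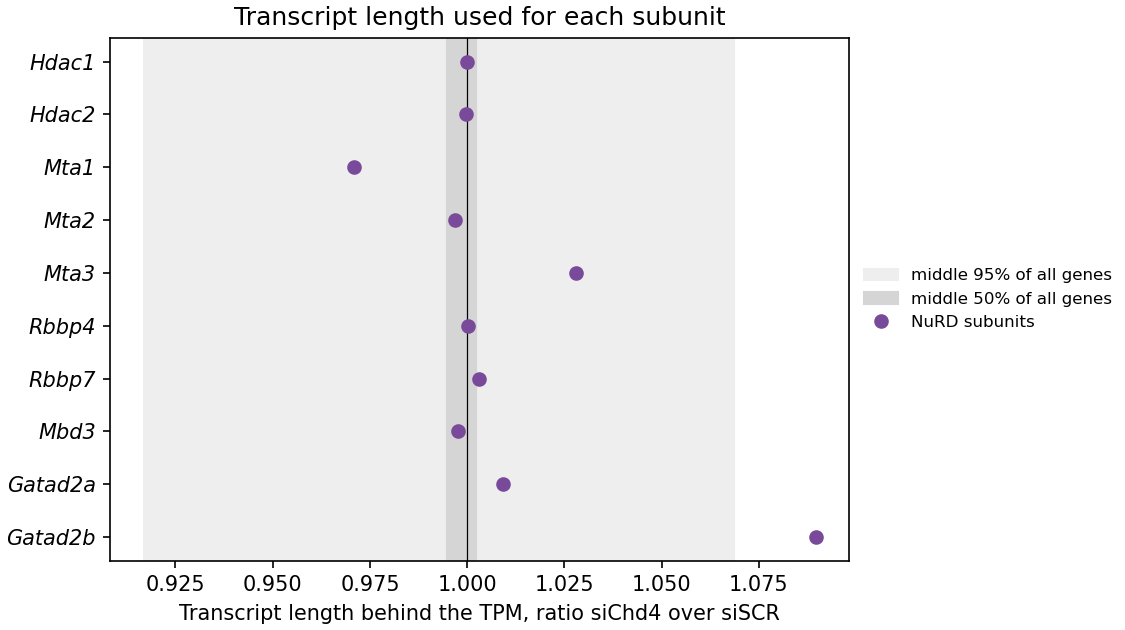
Ratio of the transcript length behind the TPM with siChd4 over siSCR for each subunit (purple), relative to the median of all genes, with the middle 95% and middle 50% of 12872 genes shaded. Gatad2b, at 1.09, lies to the right of the middle 95%, which ends at 1.07.

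**Figure D4:**
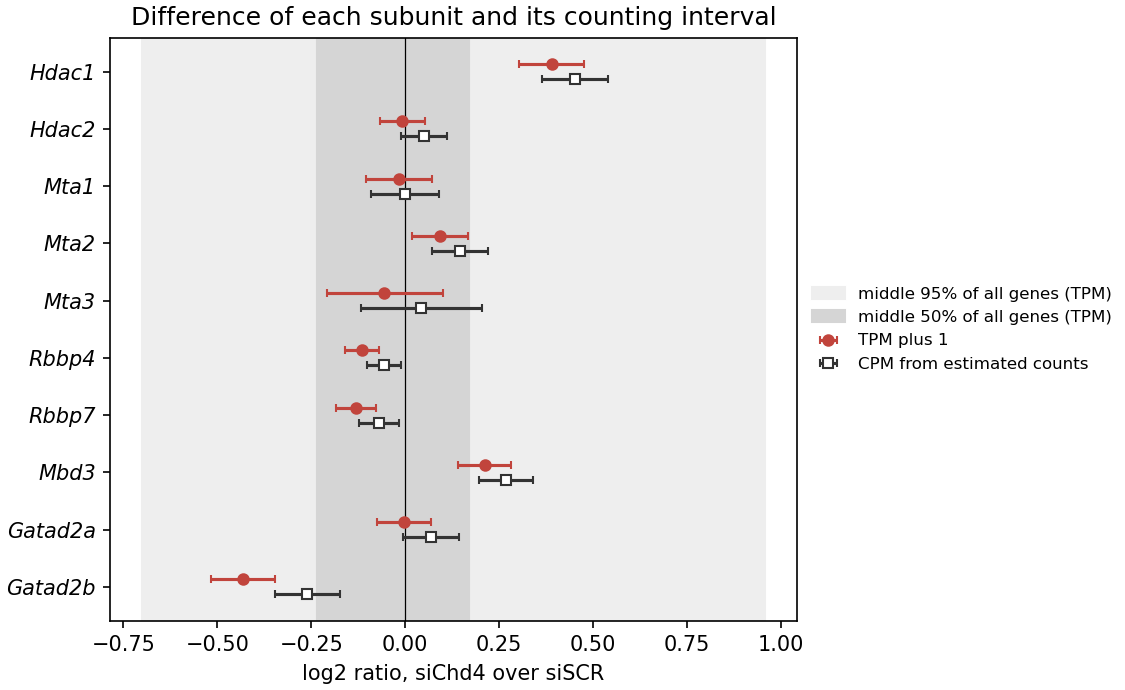
Log2 ratio of siChd4 over siSCR for each subunit on TPM plus 1 (red circles) and on CPM (open squares), with 95% counting intervals, over the middle 95% and middle 50% of all genes in TPM. Hdac1 and Mbd3 lie right of the middle 50% and Gatad2b left of it; the Gatad2b point moves toward 0 on counts.

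The order of the subunits' levels was much alike in the libraries. In siChd4, Rbbp7 came highest, followed by Hdac2 and Mbd3, whose intervals overlapped (278 and 278 TPM), then Rbbp4, Hdac1, Mta2 and Mta1, Gatad2a, Gatad2b and Mta3. In siSCR, Mbd3 stood beside Rbbp4 instead (239.5 and 241 TPM, overlapping), and Hdac1 was not separated from Mta1 (121 and 119 TPM, overlapping). Mta1 and Mta2 overlapped in either library.

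Set against the ATPases, the families did not stand alike. Chd3, Chd4 and Chd5 summed to 241 TPM with siChd4 and 260.4 TPM with siSCR, with Chd3 (18.7 against 6.19 TPM) and Chd5 (19.1 against 4.65 TPM) higher in siChd4; Chd4 made up 84.3% of the sum in siChd4, against 95.8% in siSCR. The 10 subunits together stood at 6.81 TPM per TPM of ATPase in siChd4 and 6.23 in siSCR. By family this ratio was 1.81 with siChd4 against 1.54 with siSCR for the deacetylases, 1.15 against 0.920 for Mbd3, 2.20 against 2.22 for the RBBP pair, and 0.550 against 0.555 for the GATAD2 pair. The MTA sum was 1.10 times the ATPase sum with siChd4 and equal to it, at 260.4 TPM each, with siSCR. The ATPase sum depends on the unit: in CPM it was 0.995-fold, against 0.926-fold in TPM.

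Few genes of related complexes passed 1.5-fold, as did few of all genes (6.75% higher and 4.47% lower). Of 23 NuRD partners whose mean TPM was 1 or more, such as recruiting zinc finger proteins, 0 were at least 1.5-fold higher and 1 was lower, Trps1, a GATA-type zinc finger repressor (23.7 TPM with siChd4, 40.8 TPM with siSCR), with a median log2 ratio of -0.09. Of 15 Sin3 complex genes, 0 were higher and 1 lower, Sinhcaf (23.7 TPM with siChd4, 43.0 TPM with siSCR), with a median of -0.01. The CoREST (11 genes), NCoR (6 genes) and MiDAC (3 genes) lists had 0 members past 1.5-fold in either direction and medians of -0.03, -0.11 and -0.10. In CoREST the histone demethylase gene Kdm1a was at 145 TPM with siChd4 and 128 TPM with siSCR, and Hmg20b at 61.1 TPM with siChd4 and 52.7 TPM with siSCR. In NCoR the deacetylase gene Hdac3 was at 138 TPM with siChd4 and 147 TPM with siSCR, and Ncor1 at 94.2 TPM with siChd4 and 95.8 TPM with siSCR. In MiDAC, a mitotic deacetylase complex that also holds Hdac1 or Hdac2, Dnttip1 was at 54.7 TPM with siChd4 and 48.8 TPM with siSCR, and Elmsan1 at 12.1 TPM with siChd4 and 17.1 TPM with siSCR.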

How the data were processed

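RNA-seq of 2 libraries was analysed, 1 per group, with groups taken from the treatment labels. Per the file headers, the authors deposited FPKM, TPM and read counts per gene. The deposited counts are estimated counts: 17.8% in siChd4 and 16.0% in siSCR were whole numbers. Per the submitters' processing notes, mm39 was the genome build. For the aligner, the counter and the use of strand, no tool is named (not given in the sources used here).

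Log2 ratios of siChd4 over siSCR used TPM plus a pseudocount of 1, and were set against the 12882 genes whose mean TPM was 1 or more. Intervals used counts rounded to whole numbers (scipy 1.17.1) and were carried to the TPM scale with the deposited lengths; for sums and for shares of 3 genes this is approximate. A floor of 3 counts was 0.149 CPM in siChd4 and 0.151 CPM in siSCR. Without molecular identifiers, reads may be copies of 1 molecule. Intervals of paralog ratios are exact conditional intervals of the odds ratio. TMM factors came from edgeR 4.0.16. The calculation of folds and intervals was checked on simulated counts with known folds. Alternatives were other scalings, units, pseudocounts, filters and a lowess length trend (span 0.3). Other genes were named by rule: up to 3 per list and direction past 1.5-fold, or the 2 most abundant where none passed, plus fixed markers. Members and lists were chosen with earlier results of these data known.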

Additional observations from a re-analysis of the deposited data

How the results depend on the processing

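No paired analysis was possible because siChd4 and siSCR had 1 library each, so leaving out a library was not possible either. Over 8 settings the log2 ratio stayed between 0.38 and 0.44 for Hdac1, 0.19 and 0.27 for Mbd3, 0.09 and 0.15 for Mta2, -0.12 and -0.05 for Rbbp4, -0.13 and -0.07 for Rbbp7, and -0.44 and -0.24 for Gatad2b; for Hdac2, Mta1, Mta3 and Gatad2a, all within counting error in TPM, it took either sign. Members at least 1.2-fold higher numbered 2, Hdac1 and Mbd3, on FPKM and with 1 mean length per gene (an alternative chosen after seeing the data), and with that length 0 were lower, since Gatad2b then had a log2 ratio of -0.24. As sums of CPM, which weight long transcripts, the folds were 1.13 for the deacetylases, 0.958 for RBBP, 0.954 for GATAD2 and 0.995 for the ATPases. With median-of-ratios scaling they were 0.944 for RBBP, 1.04 for all members and 0.953 for the ATPases, because that scaling lifts every siChd4 value. The other 57 such values, and 62 of 70 values of single members, stayed within counting error or within 1.5 times. The 8 values of single members that left the TPM counting interval were all of Rbbp4, Rbbp7 or Gatad2b, the members lower in siChd4. Each kept its sign but was a smaller difference. Depth does not limit these genes, since the least covered, Mta3, had 651 estimated counts with siChd4 and 624 with siSCR.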

Other observations

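Each of the other zinc-dependent deacetylases was below Hdac2 in both libraries. Their 9 genes summed to 321 TPM with siChd4 and 328 TPM with siSCR, with a median log2 ratio of -0.06, beside -0.04 over all genes. Past 1.5-fold were 0 in either direction, beside 6.75% of all genes higher and 4.47% lower. At the 1.2-fold limit these shares of all genes were 18.1% and 22.3%. At least 1.2-fold higher were 3 of the 9, named here after their values were seen: the tubulin deacetylase gene Hdac6 (31.0 TPM with siChd4, 24.6 TPM with siSCR), Hdac10 (11.0 TPM with siChd4, 8.43 TPM with siSCR) and Hdac11 (10.8 TPM with siChd4, 7.52 TPM with siSCR). The 1 that was lower was Hdac9 (9.04 TPM with siChd4, 12.1 TPM with siSCR), and Hdac5 was at 58.8 TPM with siChd4 and 61.3 TPM with siSCR.

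Among other genes with a methyl-CpG-binding domain, 9 of 10 had log2 ratios below 0 in TPM, beside 55.3% of all genes, and 7 of 10 in CPM, beside 48.3%. The list had a median of -0.25 in TPM, beside -0.04 over all genes. At least 1.2-fold lower were 5, beside 22.3% of all genes, and 0 were that much higher, beside 18.1%. Past 1.5-fold were 0, beside 6.75% of all genes higher and 4.47% lower. The most abundant were Setdb1, a histone methyltransferase gene (69.9 TPM with siChd4, 71.6 TPM with siSCR), and Mbd2, both within counting error. Mbd6, the 1 gene above 0 in TPM, was at 17.9 TPM with siChd4 and 16.4 TPM with siSCR, and was named after its values were seen.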
